A study of Mus musculus with 2 samples.

Results

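The genes described here are 9 components of the Hedgehog signalling pathway: the receptor gene Ptch1, the co-receptor genes Gas1 and Boc, the ligand inhibitor Hhip, the signal transducer Smo, the Gli inhibitor Sufu, and the transcription factor genes Gli1, Gli2 and Gli3. They were taken by symbol from an RNA-seq table of 16803 genes, which listed all 9 of them. RNA came from NE4C, a mouse neural stem cell line that is established and was derived from embryonic brain lacking p53. Normal cultured NE4C gave 1 library (control), and HTL treated NE4C gave 1 (HTL). HTL is homocysteine thiolactone, a cyclic form of homocysteine that attaches to lysine residues of proteins. Both cultures were grown in Eagle MEM on poly-L-lysine. The dose and duration of HTL for these libraries, and whether both cultures went through the low-serum step that the study describes for other HTL experiments, are not given in the sources used here. With 1 library for each, the differences have no replicate check, and counting error of reads is all that the intervals and tests cover. Reads that carry no molecular identifier cannot be taken as independent molecules, so even that error may be understated.

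Hedgehog ligands are secreted proteins that pattern the ventral neural tube. Without ligand, the membrane protein Ptch1 holds Smo inactive, and Gli3 and Gli2 are processed to repressors. When ligand binds Ptch1, Smo accumulates in the primary cilium, Sufu releases the Gli proteins, and they activate transcription. Ptch1, Gli1 and Hhip are widely used readouts of the pathway because they are themselves induced by Gli proteins, and Ptch1 and Hhip in turn restrain the signal by binding ligand. Gas1, Boc and Cdon encode co-receptors that promote ligand reception and are held at low levels where signalling is strong. Disturbed Hedgehog signalling is a known route to neural tube defects in mice, the malformation that the study is about.

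The libraries held 10350646 control and 9102057 HTL reads after the estimated counts were rounded. All 9 genes had whole-number counts in both libraries, while 21.8% of all values in the control and 20.2% in the HTL library were fractional. The labelled cell type was checked with marker genes, whose levels are given in FPKM (reads scaled to transcript length and to the library total). The progenitor genes Nes (25.1 in the control and 24.1 in the HTL library), Msi1 (38.7 and 39.5), Vim (78.5 and 38.8) and Sox2 (34.7 and 12.6) were present. Fabp7 (0.26 and 0.30), Hes5 (0.08 and 0.01, the latter at 0 reads) and Sox9 (0.49 and 0.42), which also mark neural progenitors, were near the bottom of the scale. Summed over the 11 progenitor markers the level was 223 FPKM in the control and 162 in the HTL library. Most of that difference lay in Vim and Sox2, while Prom1 went the other way, from 11.9 to 18.3. The pluripotency gene Pou5f1 was among the most abundant genes of the table, with 1870 FPKM in the control library (rank 32) and 2114 in the HTL library (rank 40), and Nanog was listed at 23.8 and 14.8 FPKM. Summed levels in the control and HTL libraries were 31.1 and 35.5 FPKM for 7 neuronal markers, of which Tubb3 made up 16.3 and 24.8 and all others but Rbfox3 were lower in the HTL library, 4.65 and 6.30 for 5 astrocyte and oligodendrocyte markers, 14.9 and 15.4 for 6 fibroblast and mesenchyme markers, of which Twist1 made up 12.7 and 13.0, and 1.03 and 2.78 for 2 endoderm markers. Among these, Mog in the control and Gfap in the HTL library were at 0 reads. The part of cell composition in the differences below was not tested, and in bulk RNA fewer cells of a type and less RNA per cell cannot be told apart.

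Gli proteins bind a 9-base consensus, GACCACCCA or its reverse complement TGGGTGGTC. The sequences around it are shown for each match found near the 9 genes. Ptch1, called lower below, held matches, and so did Sufu, which was not called. The part of such matches in the differences was not tested. Both strands were searched within 5000 bases of the annotated gene starts in the mouse genome build NCBIM37 (mm9). Of the 9 genes, Ptch1 held 2 matches and Sufu 1, and Smo, Gli1, Gli2, Gli3, Hhip, Gas1 and Boc held 0. Of 22374 protein-coding gene starts, 7.93% had a match in a window of that size and 1.69% had one within 1000 bases. In the lines that follow, the consensus is in capitals and each sequence is written 5′ to 3′ on the minus strand. Positions of the match centres are counted from the gene start, with a minus sign for upstream. The Ptch1 matches lie at -303 (chr13:63674763-63674791) and 3877 (chr13:63670583-63670611). The Sufu match lies at 4234 (chr19:46475606-46475634).
Ptch1 at -303: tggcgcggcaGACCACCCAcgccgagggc
Ptch1 at 3877: cctcagccctGACCACCCAagtcgagcag
Sufu at 4234: aaggggtccgGACCACCCAacctgcaaaa

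A match to these letters is a description of the sequence and not evidence of binding. In the shorter RefSeq promoter windows of build GRCm38.p6, which were available for 7 of the 9 genes, 0 of the 7 genes and 0.253% of 32851 windows held the consensus.

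The first question was how far each gene differed between the HTL treatment and control libraries. Ptch1, a receptor and target gene, was lower after HTL, and Hhip, an inhibitor and target gene, was higher. A gene was called when a two-sided exact binomial test on its reads, adjusted by the Benjamini-Hochberg method over 13442 genes, gave an adjusted p of at most 0.001 and the absolute log2 ratio was at least 1, the cutoffs of the study's methods. Of the 9 genes 2 were called, 1 lower and 1 higher. Over all genes tested, 10.8% were called, 7.98% lower and 2.81% higher, so a count of 1 in each direction among 9 genes is near the background. The log2 ratio was above 0 for 5 of the 9 genes and below 0 for 4. Their median was 0.032, and the median of all genes tested was -0.14. Because that median lay below 0, the split of calls over all genes moved with the scaling, from 378 higher and 1072 lower to 553 and 798 under TMM, 559 and 788 under the median of ratios, and 498 and 860 under the upper quartile.

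**Figure D1:**
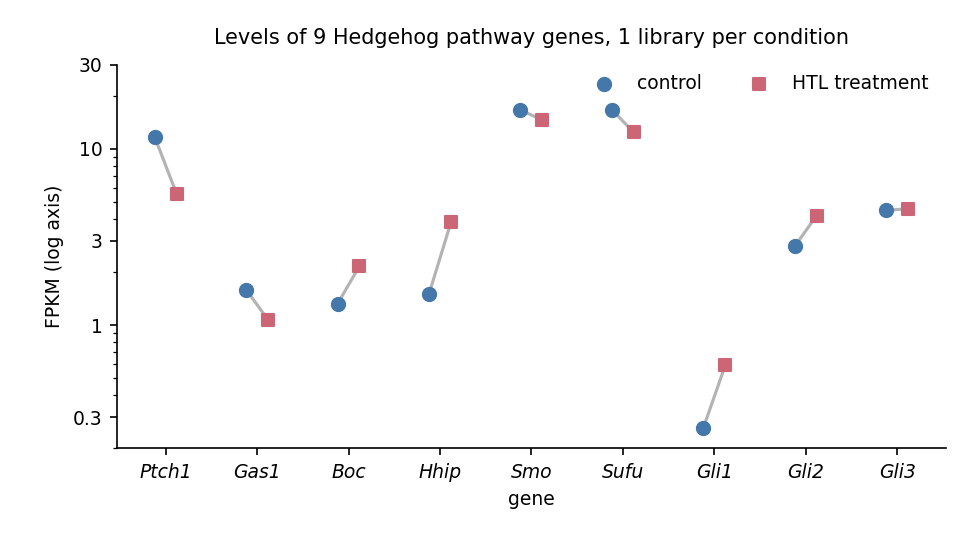
FPKM (vertical log axis) of the 9 genes in the control library (circles) and the HTL library (squares), 1 library per condition, so there are no error bars. Ptch1 went from 11.7 to 5.55 and Hhip from 1.5 to 3.82, while Gli3 was at 4.48 and 4.57.

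Ptch1 (gene ID 19206; NCBIM37 chromosome 13, 63610261 to 63674474, minus strand) encodes the receptor that binds Hedgehog ligand. It had 526 control and 220 HTL reads, or 50.8 and 24.2 CPM (reads scaled to the library total alone). The HTL library was therefore the low one, 2.10-fold below the control. The log2 ratio was -1.07 (-1.31 to -0.84, its exact Clopper-Pearson 95% interval), with an adjusted p of 6.25e-21 in the exact binomial test. Ptch1 lay just past the log2 cutoff, and with TMM scaling, which sets the typical gene near 0, its log2 ratio was -0.94 and it was no longer called. Ptch1 and the lists below were chosen with earlier results of these libraries known, so their directions are not independent evidence.

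Hhip (gene ID 15245; chromosome 8, 82490014 to 82581905, minus strand) encodes a membrane protein that binds and sequesters Hedgehog ligands. It had 143 control and 321 HTL reads, or 13.8 and 35.3 CPM. Here the HTL library was the high one, 2.55-fold above the control, with a log2 ratio of 1.35 (1.06 to 1.65) and an adjusted p of 3.23e-21 in the exact binomial test. Under TMM the log2 ratio was 1.48, and Hhip was called under all 3 other scalings. Both calls held in edgeR's exact test with the coefficient of variation between cultures set to 0.1 and were lost at 0.2, which gave an adjusted p of 0.144 for Ptch1 and 0.0491 for Hhip.

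Of the co-receptor genes, 0 of 2 were called, against 10.8% of all genes tested. The log2 ratio was above 0 for Boc and below 0 for Gas1. Boc (chromosome 16, 44485158 to 44559010, minus strand), an immunoglobulin-like co-receptor, had 61 control and 88 HTL reads, or 5.89 and 9.67 CPM. Its log2 ratio was 0.71 (0.23 to 1.21; adjusted p = 0.00667 in the exact binomial test), which was not called. Gas1 (chromosome 13, 60275766 to 60278726, minus strand), a membrane-anchored co-receptor, had 52 and 31 reads, or 5.02 and 3.41 CPM. Its log2 ratio was -0.55, and the interval from -1.25 to 0.11 spanned 0 (adjusted p = 0.151 in the exact binomial test). Neither gene had more than 88 reads in a library, so changes short of 2-fold were poorly resolved for both.

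Smo and Sufu, which act between the receptor and the Gli factors, were the most abundant of the 9 genes per transcript length. Smo (chromosome 6, 29685694 to 29711365, plus strand), the transducer that Ptch1 inhibits, had 691 control and 532 HTL reads, or 66.8 and 58.4 CPM. Its log2 ratio was -0.19 (-0.36 to -0.027; adjusted p = 0.0400 in the exact binomial test) and turned to 0.010 relative to genes of like transcript length. Sufu (chromosome 19, 46471386 to 46563294, plus strand), which retains Gli proteins in the cytoplasm, had 789 and 516 reads, or 76.2 and 56.7 CPM. The HTL library was lower, with a log2 ratio of -0.43 (-0.59 to -0.27; adjusted p = 5.97e-07 in the exact binomial test), which fell short of the log2 cutoff.

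Of the Gli factors, 0 of 3 were called, against 10.8% of all genes tested, and the log2 ratio of each was above 0. Gli1 (chromosome 10, 126766945 to 126778645, minus strand), the activator that is itself induced by the pathway, had only 10 control and 20 HTL reads, or 0.966 and 2.20 CPM. Its log2 ratio of 1.14 had an interval from 0.023 to 2.44 and an adjusted p of 0.0718 in the exact binomial test, so at this depth neither little change nor a change larger than that of Hhip could be told from the value. An exon of Gli1 overlaps Arhgap9 on the opposite strand, and Arhgap9 had 2 and 1 reads. Gli2 (chromosome 1, 120730709 to 120950196, minus strand), the main activator in the neural tube, had 197 and 259 reads, or 19.0 and 28.5 CPM. The HTL library was higher, with a log2 ratio of 0.58 (0.31 to 0.85; adjusted p = 6.95e-05 in the exact binomial test), short of the log2 cutoff. Gli3 (chromosome 13, 15555068 to 15821859, plus strand), the main repressor, had 396 and 356 reads, or 38.3 and 39.1 CPM. Its log2 ratio was 0.032 with an interval from -0.18 to 0.24 (adjusted p = 0.833 in the exact binomial test), which leaves room for changes of up to that size in either direction.

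**Figure D2:**
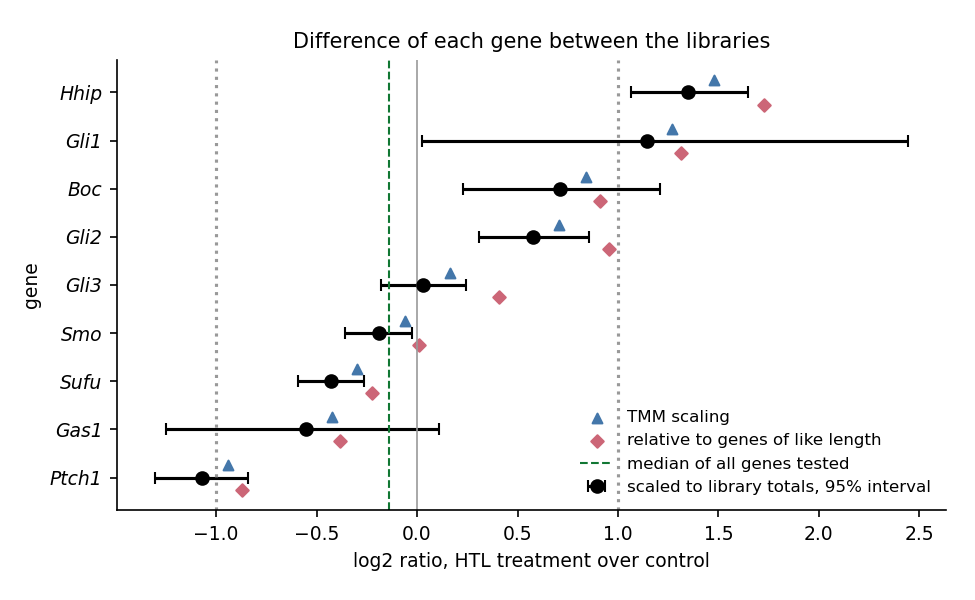
Log2 ratio of HTL treatment over control (horizontal axis) for each of the 9 genes, with exact 95% intervals (circles and bars), under TMM scaling (triangles) and relative to the median of genes of like transcript length (diamonds). Dotted lines mark the log2 cutoff of 1 in each direction and the dashed line the median of all genes tested, -0.14. Ptch1 lies at -1.07 and at -0.94 under TMM, and Hhip at 1.35 and 1.48.

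Levels between genes can be compared per transcript length, in FPKM. In the control library the order was Sufu (16.7), Smo (16.65), Ptch1 (11.7), Gli3 (4.48), Gli2 (2.80), Gas1 (1.59), Hhip (1.5), Boc (1.32) and Gli1 (0.26). In the HTL library it was Smo (14.55), Sufu (12.4), Ptch1 (5.55), Gli3 (4.57), Gli2 (4.18), Hhip (3.82), Boc (2.16), Gas1 (1.07) and Gli1 (0.59). With 1 library per condition there is no spread to tell neighbours in either order apart, and the control levels of Sufu and Smo, and those of Gas1, Hhip and Boc, were close to each other. The ratio of Ptch1 to Hhip FPKM was 7.80 in the control and 1.45 in the HTL library. The ratio of Ptch1 to Smo was 0.703 and 0.381, and that of Gas1 to Boc 1.20 and 0.495. Gli3 made up 59.4% of the summed FPKM of the 3 Gli genes in the control and 48.9% in the HTL library. Gli2 made up 37.1% and 44.8%, and Gli1 3.45% and 6.32%. Across the 5 genes whose proteins act at the cell surface, Ptch1 went from 35.7% to 20.4% of the summed FPKM and Hhip from 4.58% to 14.1%, while Smo held 50.8% and 53.6%, Gas1 4.85% and 3.94%, and Boc 4.03% and 7.96%.

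The second question was which of the 9 genes differed from each other in their response, a comparison within libraries that does not depend on how the libraries are scaled. All 36 pairs were compared by a two-sided Fisher's exact test on the reads of both genes in both libraries, adjusted over the pairs, and 16 passed an adjusted p of at most 0.001. Ptch1 differed from 7 of the 8 other genes, all but Gas1, and Hhip from 6, all but Gli1 and Boc. The widest of the 36 differences was between these genes, at -2.42 for the log2 ratio of Ptch1 minus that of Hhip (95% interval -2.80 to -2.05; adjusted p = 1.49e-40 by Fisher's exact test). Ptch1 lay below Smo by a difference of -0.88 (-1.17 to -0.59), below Sufu by -0.64 (-0.93 to -0.36) and below Gli3 by -1.10 (-1.42 to -0.79), all called. It lay below Gli1 by -2.25 (-3.54 to -1.06), which was called in spite of the few Gli1 reads. Gas1 and Ptch1 were not separated, at a difference of -0.51 (-1.22 to 0.22), and neither were Hhip and Gli1, at -0.17 for Gli1 minus Hhip (-1.37 to 1.13). Gli2 exceeded Sufu by 1.01 (0.69 to 1.33), a called difference, while the difference of 0.55 (0.20 to 0.90) between Gli2 and Gli3 had an adjusted p of 0.00301 by Fisher's exact test and was not called. Boc and Gas1 differed by -1.27 for Gas1 minus Boc (-2.13 to -0.43; adjusted p = 0.00301 by Fisher's exact test), which was not called either. The tests of pairs also cover counting error only.

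**Figure D3:**
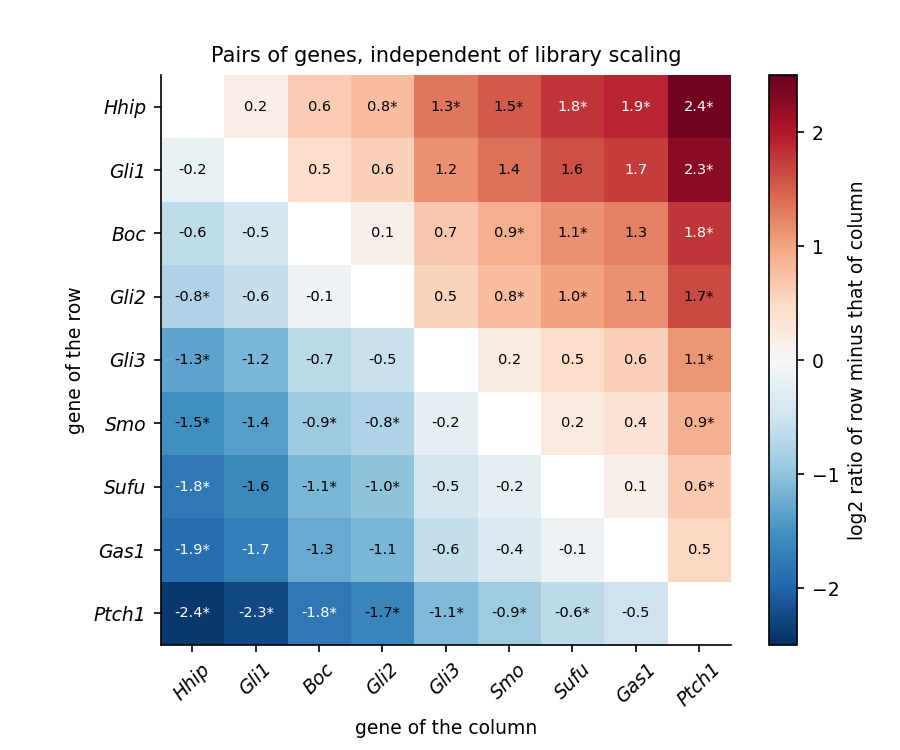
Difference in log2 ratio (HTL treatment over control) between the gene of the row and the gene of the column for all 36 pairs, in colour and as numbers. Asterisks mark the 16 pairs with an adjusted p of at most 0.001 by Fisher's exact test. Ptch1 differs from 7 genes and Hhip from 6.

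The log2 ratios of all genes tested fell with transcript length, so the length of each gene is given with its ratio. In 10 equal bins of length the median log2 ratio went from 0.14 in the shortest to -0.38 in the longest bin. Hhip (9094 bases), Gli3 (8428) and Gli2 (6708) were in the longest bin, where 1.26% of genes were called higher and 15.2% lower. All 3 lay above the median of that bin, Hhip by 1.73, Gli2 by 0.96 and Gli3 by 0.41. Ptch1 (4305 bases), Boc (4428), Sufu (4523) and Smo (3977) were in the eighth bin, with a median of -0.20, in which 9.45% of genes were called lower. Relative to that median Ptch1 was at -0.87, short of the log2 cutoff, Boc at 0.91, Sufu at -0.23 and Smo at 0.010. Gli1 (3662 bases) lay 1.31 above the median of the seventh bin, and Gas1 (3149 bases) was at -0.38 relative to that of the sixth. The part of length in the differences was not tested beyond this.

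**Figure D4:**
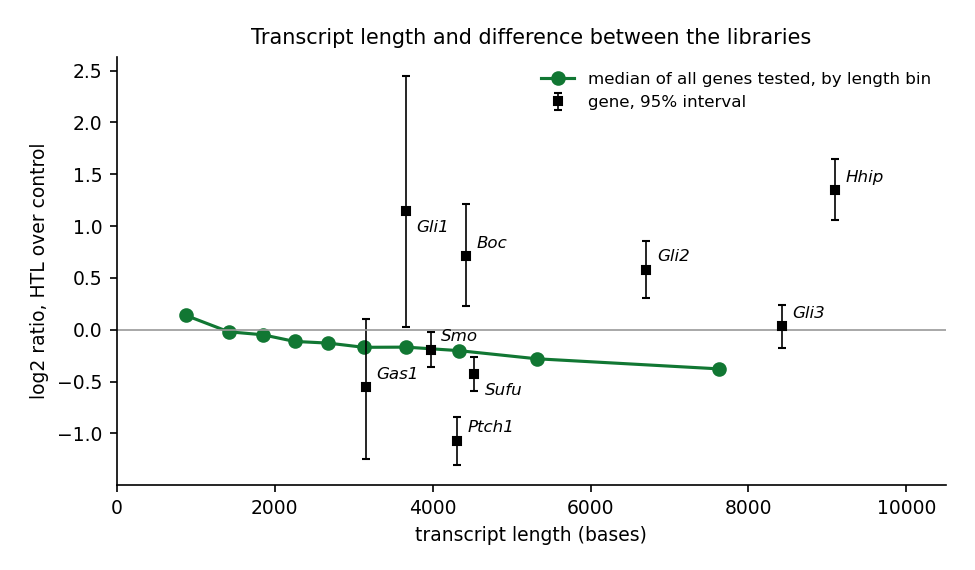
Log2 ratio of HTL treatment over control (vertical axis) against transcript length in bases for the 9 genes (squares, exact 95% intervals) and the median of all genes tested in 10 equal bins of length (circles, at the median length of each bin). The bin medians go from 0.14 to -0.38, and Hhip, at 9094 bases and 1.35, lies far above the last of them.

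Other genes of the pathway were compared by list, from the ligand to the targets. Over 5 lists, 66 genes were measured, 54 had the 10 reads needed for a test, and 5 were called, 1 higher and 4 lower. That is 9.26%, close to the 10.8% of all genes tested. Of the genes that make and release ligands, 0 of 3 tested were called. Ihh (4 control and 2 HTL reads) and Dhh (0 and 3 reads) were below the 10 reads needed for a test, and Shh was not analysed here. Disp1, which exports lipid-bearing ligand from the producing cell, had 144 control and 189 HTL reads, a log2 ratio of 0.58 (0.26 to 0.90; adjusted p = 0.000746 in the exact binomial test), short of the log2 cutoff.

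Of 7 other receptor and co-receptor genes tested, 0 were called, against 10.8% of all genes tested. The co-receptor gene Cdon, a relative of Boc, had 273 control and 181 HTL reads, a log2 ratio of -0.41 (-0.69 to -0.13), opposite in sign to Boc. Lrp2, a large endocytic receptor that takes up Shh in the forebrain, had 4727 control and 6598 HTL reads, a log2 ratio of 0.67 (0.61 to 0.72), and Gpc3, a glypican that competes with Ptch1 for ligand, 1972 and 2480 reads and 0.52 (0.43 to 0.60).

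Of 29 kinase, scaffold and ubiquitin ligase genes, 2 were called, both lower, against 7.98% of all genes called lower, and the median log2 ratio was -0.0087. Under TMM and the median of ratios 3 were called, the other one being Csnk1d, which was higher. Csnk1d, a casein kinase gene whose exons overlap Slc16a3 on the opposite strand, had 2262 and 3668 reads. Its log2 ratio was 0.88 (0.81 to 0.96), the highest of the list, and 1.01 under TMM. The called genes were Efcab7, with 101 control and 23 HTL reads, a log2 ratio of -1.93 (-2.67 to -1.28), and Iqce, with 233 and 92 reads and -1.15 (-1.52 to -0.80). Relative to the length bin Iqce lost its call and Csnk1d gained one. The products of Efcab7 and Iqce form a scaffold that anchors the Evc and Evc2 proteins at the base of the cilium. There, Evc and Evc2 relay the signal of active Smo. Evc itself had 46 control and 23 HTL reads, a log2 ratio of -0.80 (-1.60 to -0.063; adjusted p = 0.0519 in the exact binomial test), and Evc2 had 135 and 118 reads and -0.0087 (-0.38 to 0.36). Kif7, the cilium-tip kinesin that organises Gli and Sufu, had 319 control and 176 HTL reads, a log2 ratio of -0.67 (-0.95 to -0.40), and its exons overlap other genes on the opposite strand. The protein kinase A subunit gene Prkaca, whose product primes Gli proteins for processing, had 891 and 1049 reads and 0.42 (0.29 to 0.55).

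Of 10 reported Hedgehog target genes tested, 2 were called, both lower, against 7.98% of all genes called lower, which is about 1 gene more than that share gives in a list of 10. The median log2 ratio was -0.77 against -0.14 for all genes. Of this list, Myc and Ccnd1 are genes that the study picked, so their direction is not independent evidence. The called genes were Cdk6, a cell cycle kinase gene, with 1855 control and 496 HTL reads, a log2 ratio of -1.72 (-1.86 to -1.57) and an exon overlap with Gm17590 on the opposite strand, and Myc, a growth regulator, with 538 and 111 reads and -2.09 (-2.40 to -1.79). Mycn, a target in neural progenitors, had 1190 and 608 reads and -0.78 (-0.93 to -0.64), and the cyclin gene Ccnd1, whose exons overlap Oraov1 on the opposite strand, had 547 and 282 reads and -0.77 (-0.98 to -0.56). Bcl2, whose exons overlap D630008O14Rik on the opposite strand, had 215 and 99 reads and -0.93 (-1.29 to -0.58), which was not called. Over the list, 7 log2 ratios were below 0 and 3 above. Rab34, a GTPase gene of cilium formation, with 327 control and 298 HTL reads, a log2 ratio of 0.051 (-0.18 to 0.28), and Ccnd2, with 543 and 503 reads and 0.075 (-0.10 to 0.25), were not separated from 0. Most of these genes answer to other signals too. The ventral neural tube genes Foxa2 (3 and 0 reads), Nkx6-1 (1 and 3) and Nkx2-9 (2 and 4) were too low to test.

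Among 6 dorsal and intermediate neural tube genes tested, which Hedgehog signalling holds back in the embryo, 1 was called, as higher, against 2.81% of all genes called higher. Msx2 rose from 11 to 33 reads, a log2 ratio of 1.72 (0.75 to 2.90; adjusted p = 0.000556 in the exact binomial test), on few reads. The call was lost at a coefficient of variation between cultures of 0.1 and with FPKM + 1, and with a mean of 50 reads Msx2 was not tested. Zic1, which overlaps Zic4 on the opposite strand, had 1071 control and 651 HTL reads, a log2 ratio of -0.53 (-0.68 to -0.39), and Zic2 had 135 and 79 reads and -0.58 (-1.01 to -0.18). Pax6 had 69 and 66 reads and 0.12 (-0.39 to 0.63). Irx3 had 15 and 28 reads and 1.06 (0.13 to 2.10; adjusted p = 0.0384 in the exact binomial test), past the log2 cutoff but not called, and its exons overlap another gene on the opposite strand. Msx1 had 16 and 8 reads and -0.78, with an interval that spanned 0.

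**Figure D5:**
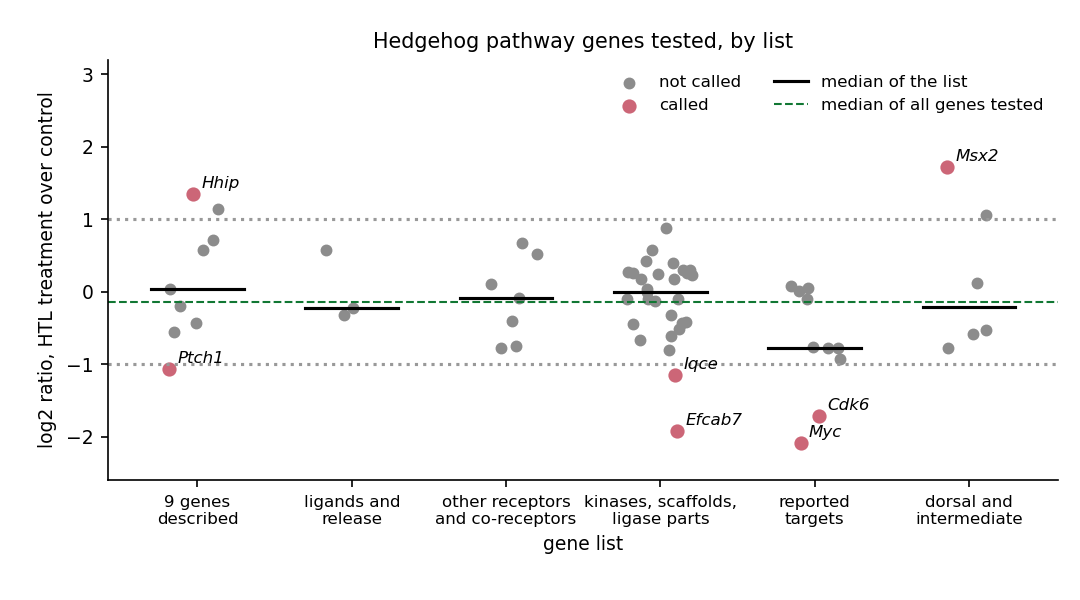
Log2 ratio of HTL treatment over control (vertical axis) for the 9 genes and for the tested genes of 5 other Hedgehog pathway lists, 1 point per gene, spread sideways for legibility. Genes called are named and coloured, thick bars are list medians, the dashed line is the median of all genes tested (-0.14) and dotted lines mark the log2 cutoff. Called genes are Ptch1 and Hhip, 2 of 29 kinase, scaffold and ligase genes, 2 of 10 targets and 1 of 6 dorsal genes.

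The genes whose levels were most like those of Ptch1, by distance in log2(FPKM + 0.1) over the 2 libraries, were Gatc (11.7 and 5.51 FPKM, distance 0.011) and Smim10l1 (11.5 and 5.62, 0.027). Those nearest to Gli3 were Akap11 (4.51 and 4.60, 0.013) and Napg (4.53 and 4.52, 0.022), and those nearest to Hhip were C1qtnf1 (1.47 and 3.71, 0.049) and B3gnt5 (1.60 and 3.91, 0.093). Over 2 libraries such likeness describes 2 values only.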

How the data were processed

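Total RNA of 1 control and 1 HTL culture of NE4C cells was sequenced on a BGISEQ-500. Sample titles gave the groups. The methods state that filtered tags were aligned to mouse reference sequences and normalised with RSEM, and the submitters' processing notes name the build mm9. Mapper, versions, annotation and use of strand are not given in the sources used here. The authors deposited expected counts (estimated reads per gene, not normalized) and FPKM values, which they scaled to transcript length and library size, with 0.01 as the lowest value. Log2 ratios, p-values and FDR of the authors' own comparison in the same table were not used. Rows without a symbol (80) held 0.221% of control and 0.216% of HTL reads and stayed in the totals, as they carry gene IDs.

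Expected counts were rounded. Tests used SciPy 1.17.1 on the 13442 genes whose reads summed to 10 or more over the 2 libraries, leaving out 3361. For log2 ratios, 0.5 read was added in proportion to library totals. Without replicates, neither the quasi-likelihood test nor DESeq2 could be fitted. edgeR 4.0.16 and DESeq2 1.42.0 gave the other scalings (TMM and upper quartile, and the median of ratios), and edgeR's exact test was run with assumed coefficients of variation of 0.1, 0.2 and 0.4. Code was tested on counts drawn with known changes. All 9 genes are named, with all called genes of the other lists, and further genes were picked after their values were seen, to show each list. The genes, lists and tests were chosen with earlier results of these data known. Positions are from GENCODE annotation of NCBIM37 and the promoter windows from RefSeq. An item that the list counts include is not reported here.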

Additional observations from a re-analysis of the deposited data

How the results depend on the processing

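No paired analysis was possible because there was 1 library for each culture, and none could be left out. All alternatives were planned. Of the 9 genes 2 were called. The count was 1 under TMM, the median of ratios and the upper quartile, and 1 relative to the length bin, where Ptch1 lost its call each time with log2 ratios of -0.94, -0.93, -0.98 and -0.87. It was 0 for the ratio of FPKM + 1 (Ptch1 -0.96, Hhip 0.95) and at an assumed coefficient of variation of 0.2 or 0.4, and 4 with no cutoff on the log2 ratio, when Gli2 and Sufu were added. With the FPKM ratio alone, which has no test, it was 3, with Gli1 at 1.18 added. The log2 ratio of Hhip ran from 0.95 to 1.73 and that of Ptch1 from -1.08 to -0.87 over 15 alternatives. Only Smo changed sign, to 0.010 relative to the length bin. The 3 scalings raised log2 ratios by 0.13, 0.14 and 0.093. Rounding counts down could not change the pairs, since all 9 genes had whole counts.

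The count of 1450 genes called in the whole table became 852 with FPKM + 1, 2369 with the FPKM ratio alone, 5193 with no cutoff on the log2 ratio, 3164 with a 1.5-fold cutoff, and 120 or 6 at an assumed coefficient of variation of 0.2 or 0.4. Counts in the other lists moved as follows. Under TMM and the median of ratios the kinase list had 3, with Csnk1d added as higher, and relative to the length bin it had 2, with Csnk1d in place of Iqce. With no cutoff on the log2 ratio they were 1 ligand gene, 4 receptor genes, 16 kinase, scaffold and ligase genes, 6 targets and 2 dorsal genes. With a 1.5-fold cutoff they were 3 receptor genes, 4 kinase, scaffold and ligase genes and 6 targets. At a coefficient of variation of 0.2 there was 1 target and 0 genes in the kinase and dorsal lists, and at 0.4 there were 0 in all 3. At 0.1 the dorsal list had 0, as with a mean of 50 reads and with FPKM + 1, which also left 1 kinase list gene, Efcab7. The dorsal list had 2 with the FPKM ratio alone or an adjusted p of 0.05, when Irx3 was added, and the receptor list 1 relative to the length bin. Gli1 and Gas1 had no value with a mean of 50 reads. Depth limits Gli1, Gas1 and Boc most, and the error between cultures was not measured.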
